A study of Oryza sativa with 2 samples.

Results

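The proteins of the small ribosomal subunit were followed through their transcripts in rice leaves. Loci were taken as members when the deposited annotation read "ribosomal protein S" with a number, 40S or 30S, in any case, and loci from LOC_Os10g21180 to LOC_Os10g21430 on chromosome 10 were left out. Of 26715 loci in the table, 144 matched these words, 7 of them lay in the interval left out, and 137 remained with 164 transcript models. The annotation is worded as descriptions of Arabidopsis genes, and the table gives locus IDs but no coordinates.

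The small subunit reads the messenger RNA and holds the decoding site, while the large subunit forms the peptide bonds. A plant cell builds separate sets of it for the cytosol (the 40S subunit), for plastids and for mitochondria, the last a pair of sets descended from bacteria. Proteins of the plastid 30S subunit are encoded partly in the nucleus, whose products are imported, and partly in the plastid genome itself.

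RNA-seq was carried out on leaves of seedlings grown on 1/2 MS medium in a growth chamber at a constant 32 °C with 12 h of light and 12 h of dark, with 1 library of wild-type *japonica* cv. Zhonghua11 and 1 library of a mutant from an EMS-induced library of the same cultivar. In the deposited columns the mutant is named *wlp2s*, an allele of *WLP2*, while its sample title names the locus and no allele, so it is called the library labelled *wlp2s*. *WLP2* (LOC_Os01g63220), annotated as fructokinase-like 1, had 6.61 RPKM (wild-type) against 9.10 RPKM (*wlp2s*), a ratio of 1.38 (1.09 to 1.74), and since the mutation is a single-base change this level does not identify the genotype. Plant age, the number of plants pooled and other EMS mutations the line may carry are not given in the labels, and no difference between these libraries has a replicate check, so no p-value is given.

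The libraries held 9080323 counts (wild-type) and 9327778 counts (*wlp2s*). Levels are given as RPKM, in which reads are divided by transcript length and by library depth, after the models of each locus had been added up. The difference of a locus is log2(RPKM + 1) in *wlp2s* minus that in wild-type, a scale that understates the change of weakly expressed loci. Loci below 1 RPKM in both libraries were filtered out, and over the 18639 that passed the median was 0.00 and the middle 50% ran from -0.18 to 0.21. A ratio is the counts in *wlp2s* over those in wild-type, scaled to the library totals, with an exact 95% binomial interval in parentheses that covers counting error only. In leaf RNA, fewer cells of a type and less RNA per cell cannot be told apart.

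Transcripts for the small subunit as a whole were at close to the same level in both libraries, with 1 group of loci set apart from the others. Of the 137 members, 115 passed the filter on low values and 22 did not. Among the 115, 0 were higher and 0 were lower by a difference of at least 1, a size reached by 2.8% of all loci (1.79% higher and 1.01% lower). At a difference of at least 0.5, 8 members were higher and 2 were lower, beside 8.71% and 6.1% of all loci (14.8% in either direction). The members had a median difference of 0.05 and ranged from -0.51 to 0.95, with 63 above 0 and 52 below (50.3% and 49.7% of all loci). Together they took 0.512% of the wild-type counts and 0.554% of the *wlp2s* counts, a ratio of 1.08 (1.07 to 1.09). The interval of the ratio lay above 1 for 22 of the 115 members and below 1 for 2 of them. Over all loci it lay above 1 for 16.1% and below 1 for 15.4%, so the share of members below 1 was the smaller.

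**Figure D1:**
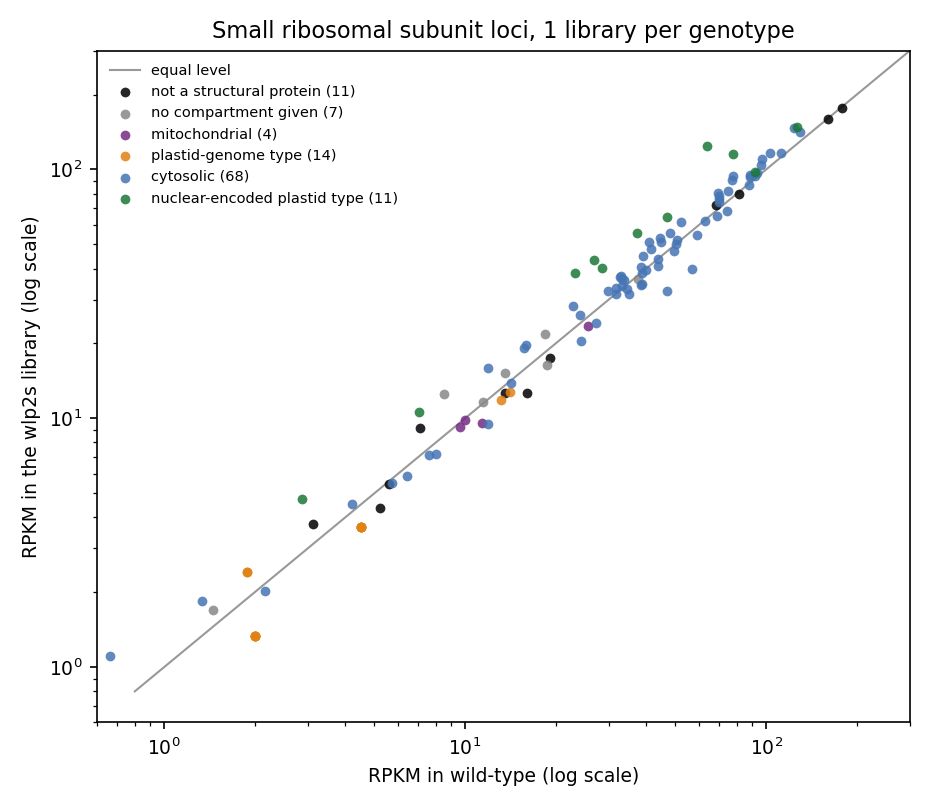
Level of each small subunit locus in wild-type (x axis, RPKM, log scale) against the library labelled *wlp2s* (y axis, RPKM, log scale), coloured by the class of the locus. The grey line marks equal levels. Most points lie along it, and green points, the nuclear-encoded plastid-type loci, lie on or above it.

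Split by the words 30S, plastid, chloroplast or mitochondrial in the annotation, 10 members were organelle-type and 127 were left as cytosolic. Of these, 6 and 109 passed the filter, with median differences of 0.24 and 0.04. Summed counts gave a ratio of 1.65 (1.55 to 1.75) for the organelle-type loci and 1.06 (1.04 to 1.07) for the others. Of the 1775 and 3004 counts of the organelle-type loci, LOC_Os03g63950 alone held 1039 in wild-type and 2084 in *wlp2s*. This split does not separate the ribosomes of the cell, because many organelle proteins carry only a family name. The 127 loci without such words hold 70 cytosolic types by their GO terms, 21 of the types encoded on the plastid genome, 10 nuclear-encoded plastid types, 5 mitochondrial types, 8 with no compartment in their GO terms and 13 that are no structural proteins of the subunit.

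The members were therefore also sorted by the GO terms deposited with them and by whether their protein number is among the 12 *rps* symbols that RefSeq lists on the rice plastid genome. Loci with GO terms for both plastid and mitochondrion were left as nuclear-encoded whatever their number, which applies to both S16 loci. This sorting was added after the values had been seen, and it rests on annotation transferred from Arabidopsis, since import into an organelle was not measured. It gave 12 nuclear-encoded plastid-type loci (11 past the filter), 70 cytosolic loci (68 past the filter), 27 loci of plastid-genome types (14 past the filter) and 7 mitochondrial loci (4 past the filter). Nuclear-encoded plastid-type loci had a median difference of 0.56, against 0.07 for cytosolic, -0.24 for plastid-genome and -0.09 for mitochondrial types. No test of these differences between classes was possible with 1 library per genotype.

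**Figure D2:**
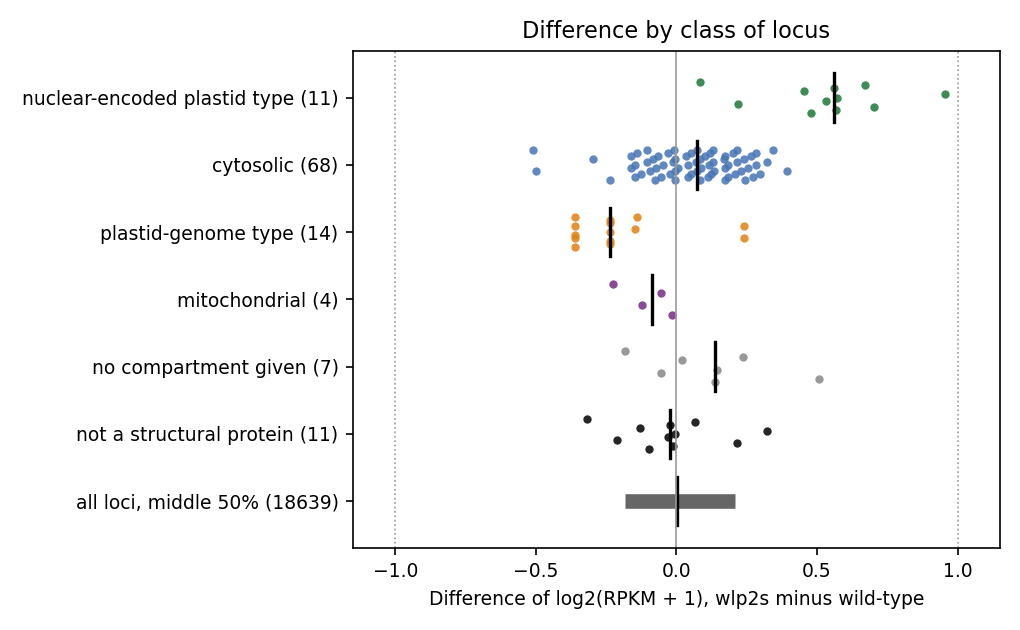
Difference of log2(RPKM + 1), *wlp2s* minus wild-type, for each locus past the filter (points), by class, with the number of loci in parentheses and the class median as a vertical bar. The grey band is the middle 50% of all 18639 loci, from -0.18 to 0.21, and dotted lines mark a difference of 1 either way. The 11 nuclear-encoded plastid-type points all lie above 0, from 0.08 to 0.95.

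Nuclear-encoded proteins of the plastid 30S subunit were the group with the higher transcript levels in the library labelled *wlp2s*. All 11 loci past the filter had differences above 0, 7 of the 11 reached 0.5, and the interval of the ratio lay above 1 for 9 and below 1 for 0. Together they had 5892 counts in wild-type against 8578 in *wlp2s*, a ratio of 1.42 (1.37 to 1.47). LOC_Os03g63950 alone held 1039 of the wild-type counts and 2084 of the *wlp2s* counts. Each of the 11 has whole-number counts in both libraries, so no division of reads with other loci shows in them. Of all loci, 8.71% were higher by at least 0.5 and 16.1% had an interval above 1. Without the S16 loci, 9 of 9 were above 0, 5 reached 0.5 and 8 had an interval above 1, with a summed ratio of 1.42 (1.37 to 1.46). The S16 loci held only 71 counts in wild-type and 113 in *wlp2s*, so leaving them out could hardly move the sum. No sum was made without LOC_Os03g63950, which has the highest ratio of the class.

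LOC_Os03g63950, annotated as "30S ribosomal protein, putative" without a protein number, stood highest. It had 1039 counts in wild-type and 2084 counts in *wlp2s*, or 63.8 RPKM and 125 RPKM, a ratio of 1.95 (1.81 to 2.11). Both of its transcript models were higher, with ratios of 1.97 and 1.94, but reads had been divided between them. The difference of 0.95 was just short of 1.

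S5, a protein of the decoding region that in bacteria influences how accurately codons are read, is represented by LOC_Os03g34040. It was at 23.2 RPKM in wild-type against 38.3 RPKM in *wlp2s* (299 and 509 counts), a ratio of 1.66 (1.43 to 1.92). Its 3 models gave ratios of 1.67, 1.56 and 1.71. Reads had been divided among the models, so these ratios are not separate measurements. S21, a small protein near the site where bacterial messenger RNAs pair with the subunit, was at 26.9 RPKM and 43.4 RPKM from LOC_Os02g09590, a ratio of 1.61 (1.35 to 1.93). The other S21 locus of the class, LOC_Os08g02840, had 3 counts in wild-type and 4 counts in *wlp2s* and did not pass the filter.

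S13, a protein of the head of the subunit that touches the large subunit, is carried by LOC_Os03g49710 under the family name S13/S18. Its level was 77.8 RPKM in wild-type and 115 RPKM in *wlp2s* (623 and 948 counts), a ratio of 1.48 (1.34 to 1.64). S6, which in bacteria sits on the platform of the subunit, shares its family name with the elongation factor EF1B, and 2 such loci had plastid GO terms. LOC_Os12g37610 was at 37.2 RPKM and 55.6 RPKM, a ratio of 1.49 (1.31 to 1.71). LOC_Os03g62630 was at 28.5 RPKM and 40.1 RPKM, a ratio of 1.41 (1.20 to 1.65), so the S6-type pair differed from wild-type by like amounts.

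Proteins that bind the 16S ribosomal RNA early in assembly of the bacterial subunit include S20 and S16. S20, annotated as a chloroplast 30S protein (LOC_Os01g48690), was at 46.7 RPKM in wild-type against 64.3 RPKM in *wlp2s*, a ratio of 1.38 (1.22 to 1.56). S16 was present at 2 loci with low levels. LOC_Os09g32274 had 51 counts in wild-type and 79 counts in *wlp2s*, a ratio of 1.51 (1.05 to 2.19). LOC_Os08g40610 had 20 and 34 counts, a ratio of 1.65 (0.926 to 3.03), and at this depth a difference was not detectable at that locus alone.

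The loci of the class with the highest RPKM in wild-type were those nearest to equal levels, an order that does not hold in *wlp2s*. S1, which in bacteria helps to recruit messenger RNA, was at 127 RPKM in wild-type against 148 RPKM in *wlp2s* (LOC_Os03g20100, 1828 and 2188 counts), a ratio of 1.17 (1.10 to 1.24). LOC_Os03g10060, of the S10p/S20e family, was at 91.9 RPKM and 97.4 RPKM, a ratio of 1.06 (0.958 to 1.17), whose interval includes 1. These intervals do not overlap those of LOC_Os03g63950, S5, S21 at LOC_Os02g09590 or S13/S18, so the higher level was unequal within the class beyond counting error.

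**Figure D3:**
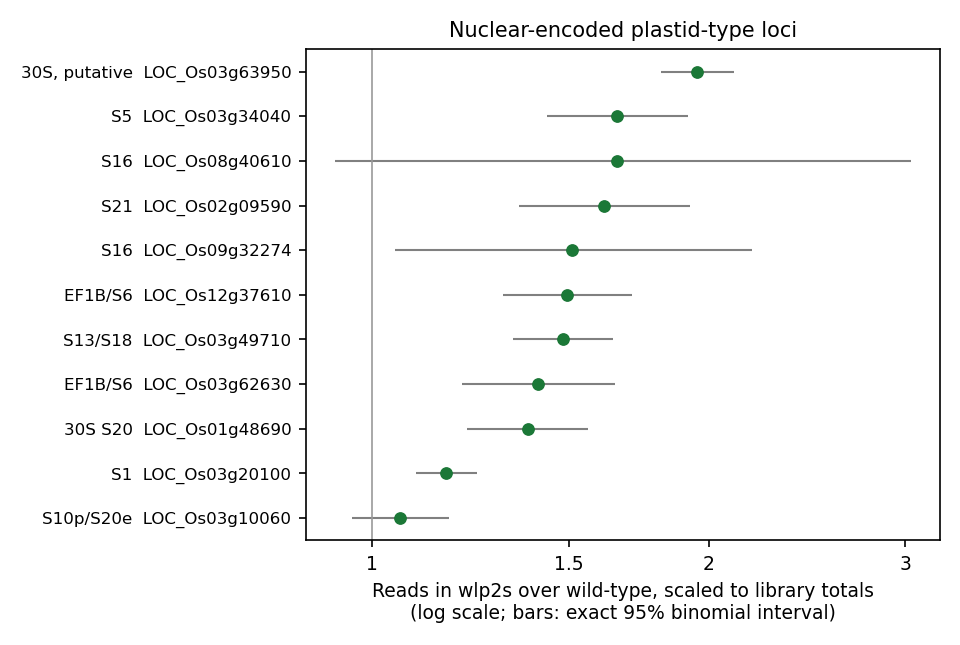
Counts in *wlp2s* over wild-type for the 11 nuclear-encoded plastid-type loci past the filter, scaled to library totals (points, log axis), with exact 95% binomial intervals (bars). Points run from 1.06 for S10p/S20e to 1.95 for the 30S protein without a number, and the intervals of S16 at LOC_Os08g40610 and of S10p/S20e include 1.

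S9 and a further S21 locus lie at the edge of this class. S9 (LOC_Os03g55930), whose tail in bacteria reaches towards the transfer RNA, has both cytosol and plastid among its GO terms and was counted as cytosolic. It was at 22.8 RPKM in wild-type against 28.2 RPKM in *wlp2s*, a ratio of 1.24 (1.03 to 1.49). S21 at LOC_Os03g48830, with no compartment in its GO terms, was at 8.51 RPKM and 12.5 RPKM, a ratio of 1.47 (1.00 to 2.17). Of the 7 loci without a compartment that passed the filter, 5 were above 0 and 2 below, with a median of 0.14, and S21 was the locus with an interval above 1. An S18 locus (LOC_Os10g35690) was at 18.7 RPKM in wild-type against 16.3 RPKM in *wlp2s*, a ratio of 0.874 (0.716 to 1.07).

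The types encoded on the plastid genome gave no such excess. Names of this kind were found at 27 loci of the nuclear locus numbering, of which 21 had exactly the same counts as another of them, leaving 13 distinct pairs of values. Loci with identical counts are not separate measurements. None of the 14 past the filter had whole-number counts, 2 were above 0 and 12 below, and each of their intervals included 1. These 14 hold 5 distinct pairs of counts, 1 above 0 and 4 below, with a median of -0.15 when each pair is taken once. Plastid transcripts mostly lack long poly(A) tails, and whether the libraries were selected by poly(A) is not stated for them in the sources used here, where oligo(dT) priming is named for first-strand cDNA in general, and its part in these levels was not tested.

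S7, which organises the head of the subunit, had the most reads of these types. Its 7 loci summed to 240.8 counts in wild-type and 213.9 counts in *wlp2s*, a ratio of 0.865 (0.716 to 1.04). S19, also of the head, had 5 loci with identical counts that summed to 25.7 and 17.6 counts, a ratio of 0.667 (0.348 to 1.28). S14 had fewer reads in wild-type (10.7 counts) than in *wlp2s* (14 counts), a ratio of 1.28 (0.523 to 3.02). S4 had 16 and 12 counts over 3 loci. S2, S8, S11, S15 and S18 had at most 5.33 counts per library, where no difference was detectable at this depth.

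Mitochondrial small subunit loci past the filter were at near-equal levels. S24/S35 (LOC_Os08g40230) was at 9.99 RPKM in wild-type against 9.86 RPKM in *wlp2s*, a ratio of 0.987 (0.779 to 1.25). S29 (LOC_Os07g10300) was at 9.59 RPKM and 9.20 RPKM, a ratio of 0.960 (0.757 to 1.22). The 2 loci of S10 summed to 368 and 342 counts, a ratio of 0.905 (0.779 to 1.05). All 4 intervals included 1. The 3 loci of S2 on chromosome 12, which did not pass the filter, went the other way, with 8.25 summed counts in wild-type and 23.3 in *wlp2s*, a ratio of 2.74 (1.21 to 7.24) from few and divided reads.

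Cytosolic 40S proteins were at slightly higher levels in *wlp2s*. Of the 68 loci past the filter, 42 were above 0 and 26 below, 0 were higher and 2 were lower by at least 0.5, and the interval lay above 1 for 12 and below 1 for 1. Their shares of loci with an interval on either side are near or under the 16.1% and 15.4% of all loci. Summed, they took 0.287% of wild-type counts and 0.304% of *wlp2s* counts, a ratio of 1.06 (1.04 to 1.07). At 48 of the 68 loci some reads had been divided with other models or loci, so paralogs, which are near-identical in this family, were also summed. LOC_Os02g01540 (S11) passed the filter through the *wlp2s* library alone, with 0.661 RPKM in wild-type and 1.11 RPKM in *wlp2s*.

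Summing paralogs that share an annotation name gave 29 cytosolic families, 24 of them with more than 1 locus past the filter. The interval of the ratio lay above 1 for 9 families, below 1 for 0 and included 1 for 20, and the ratios ran from 0.797 to 1.24 with a median of 1.06. Sums hold more reads than single loci and so have narrower intervals, and no background share for families was computed. From loci with whole-number counts alone, 2 families lay above 1. S4, a protein that starts assembly by binding ribosomal RNA, summed over 4 loci to 1294 counts in wild-type and 1568 counts in *wlp2s*, a ratio of 1.18 (1.09 to 1.27). S12/S23, which lies at the decoding centre, gave 1.16 (1.04 to 1.28), and the cytosolic S10p/S20e family gave 1.14 (1.02 to 1.29). The other families above 1 were S9, S11-beta at 1.12, S24e at 1.11, and S5, S7e and the loci named as S5 domain 2-like at 1.08 each.

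Families with many reads were also found at equal levels. S3Ae had 1525 counts in wild-type and 1567 in *wlp2s*, a ratio of 1.00 (0.932 to 1.07). S11 gave 0.993 (0.913 to 1.08) and S8e gave 1.02 (0.947 to 1.11). S27a, which is made as a fusion with ubiquitin, gave 1.06 (0.991 to 1.14), and S6e, the target of S6 kinase, gave 1.08 (0.971 to 1.20). The lowest families, S15A E at 0.797 (0.582 to 1.09) and S19 at 0.904 (0.808 to 1.01), had intervals that include 1. S15A E is 1 locus with 94 counts in wild-type and 77 in *wlp2s*. Only its name kept it apart from S15A, which had 245 and 285 counts, a ratio of 1.13 (0.951 to 1.35).

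**Figure D4:**
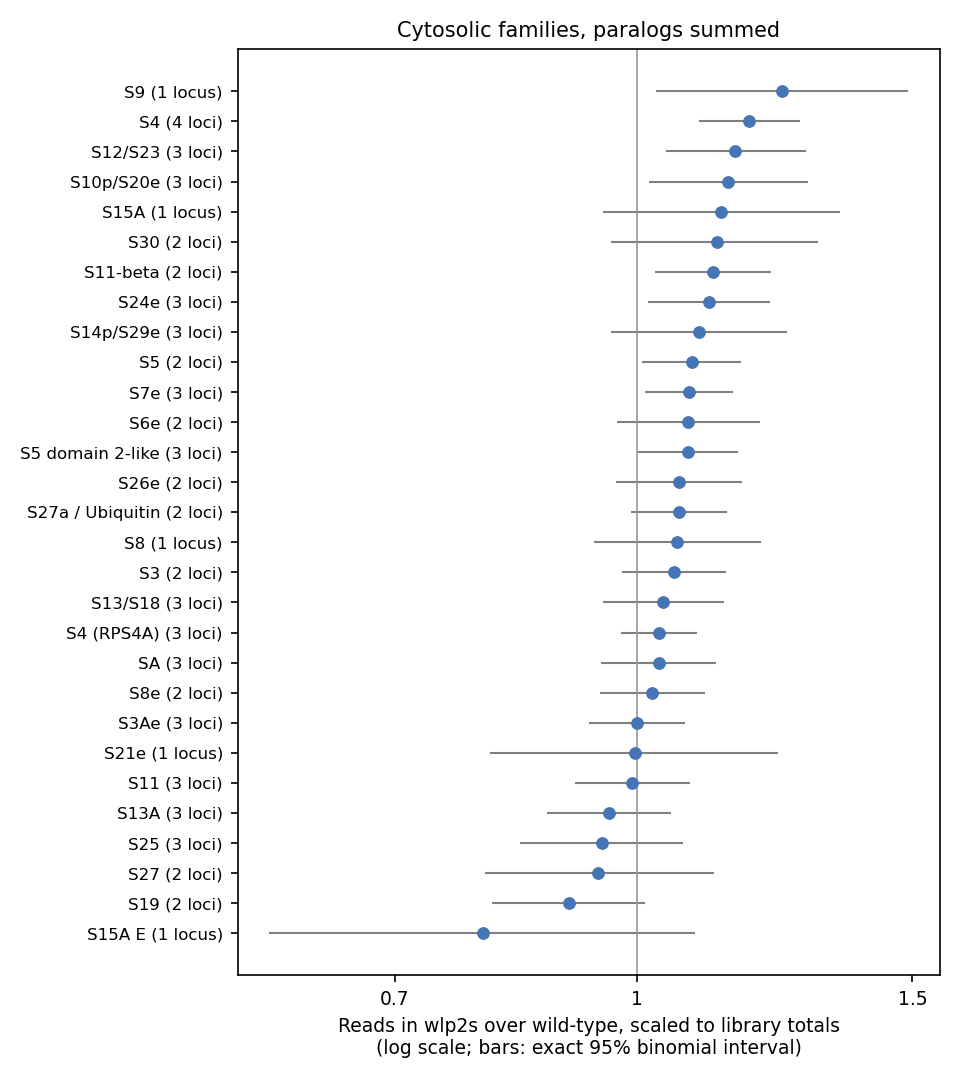
Counts in *wlp2s* over wild-type for the 29 cytosolic families, paralogs summed and scaled to library totals (points, log axis), with exact 95% binomial intervals (bars) and the number of loci per family. Points run from 0.797 for S15A E, a single locus kept apart from S15A by its name, to 1.24 for S9. S9 has both cytosol and plastid GO terms, and 9 intervals lie wholly above 1.

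Within a family, single paralogs could differ in opposite directions. The 3 loci of RPS4A, a eukaryotic protein that shares only its number with the S4 above, summed to 2405 counts in wild-type and 2552 in *wlp2s*, a ratio of 1.03 (0.977 to 1.09). LOC_Os02g01560, among the most abundant cytosolic loci, was at 124 RPKM in wild-type against 147 RPKM in *wlp2s*, a ratio of 1.19 (1.11 to 1.27). LOC_Os05g30530 was at 46.9 RPKM and 32.6 RPKM (497 and 355 counts), 1.44-fold lower (1.25 to 1.65), the lowest difference of any member past the filter. Its share of the RPS4A reads was 20.7% (19.1 to 22.3) in wild-type and 13.9% (12.6 to 15.3) in *wlp2s*, and that of LOC_Os02g01560 was 61.2% and 70.3%.

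Shares were compared for each family with more than 1 locus. Of 63 paralogs in 24 families, 4 in 3 families had shares whose intervals did not overlap between the libraries, and the largest shift was 9.09 percentage points. No such share was computed for paralogs of other gene families. Besides the RPS4A pair these were LOC_Os03g08440 of the SA family, which held 75.1% of its family in wild-type and 68.8% in *wlp2s*, and LOC_Os01g52490 of S24e, with a share of 24.3% in *wlp2s* that lay under its wild-type interval. Both belong to families in which some reads had been divided between loci.

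Other cytosolic loci with differences below 0 had intervals that include 1. S27 at LOC_Os02g27769 was at 56.7 RPKM in wild-type against 39.7 RPKM in *wlp2s*, but from 71 and 51.2 counts, with a ratio of 0.702 (0.478 to 1.02). S25 at LOC_Os11g05562 was at 24.4 RPKM and 20.5 RPKM, with a ratio of 0.842 (0.662 to 1.07). At the other end, SA at LOC_Os07g42450 had 145.7 and 200.7 counts, a ratio of 1.34 (1.08 to 1.67). S5 at LOC_Os03g59310, the cytosolic locus with the highest wild-type RPKM, was at 129 RPKM and 142 RPKM, a ratio of 1.10 (1.02 to 1.18).

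The words of the rule also brought in 13 loci that are no structural proteins of the subunit, 11 of them past the filter, with a median of -0.02. They include the most abundant members, a pair of GTPases annotated as S5/Elongation factor G/III/V, the family of the factor that moves the ribosome along the messenger RNA. LOC_Os04g02820 was at 178 RPKM in wild-type against 177 RPKM in *wlp2s*, a ratio of 0.993 (0.954 to 1.03). LOC_Os02g32030 was at 161 RPKM and 160.1 RPKM, a ratio of 0.995 (0.956 to 1.04), and both share reads. LOC_Os03g29260, an EF1B locus of the exchange factor that reloads elongation factor 1A, had 249.5 counts in wild-type and 202.5 in *wlp2s*, 1.27-fold lower (1.05 to 1.54). Without these loci the summed ratio of the members was 1.11 (1.10 to 1.13).

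Proteins that load, drive and build ribosomes were examined by words in the annotation, and their counts stand beside the 16.1% of all loci with an interval above 1 and the 15.4% below. Of 40 loci of cytosolic initiation factors past the filter, 6 had an interval above 1 and 4 below, with a median of 0.01. Of 24 loci of cytosolic elongation factors, 2 were above and 4 below, with a median of -0.06. This list shares its EF1B and S6-type loci with the members. Both above 1 were the plastid S6-type loci LOC_Os12g37610 and LOC_Os03g62630, so 0 of the other loci in this list were above. Cytosolic factors whose names the words did not match fall outside the list. Loci listed by words as organelle translation factors had 4 of 22 above and 1 below, with a median of 0.07. Their most abundant named locus (LOC_Os03g08020) was at 431 RPKM in wild-type against 501 RPKM in *wlp2s*, a ratio of 1.16 (1.12 to 1.21). It is annotated as a GTP binding elongation factor Tu family protein, a name that gives no compartment, and part of its wild-type reads had been divided. The list may therefore hold cytosolic factors, and this locus cannot be read as an organelle factor from its name. The locus annotated as initiation factor 2, small GTP-binding protein (LOC_Os05g49970) went the other way, with 3404 and 2906 counts, 1.20-fold lower (1.15 to 1.26).

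Among 25 loci of small subunit assembly factors past the filter, 1 had an interval above 1 and 5 below, and the median was 0.00. Over all loci the shares above and below were 16.1% and 15.4%. The lowest of the 25 had a difference of -1.55 and was the 1 locus lower by at least 1, a size reached by 1.01% of all loci. It was under 5 RPKM in both libraries and so is not among the named loci. A gar2-related nucleolar protein (LOC_Os08g39490) was at 5.80 RPKM in wild-type against 2.96 RPKM in *wlp2s*, 1.96-fold lower (1.50 to 2.57). Fcf2, a protein of ribosomal RNA processing (LOC_Os02g49780), was at 13.4 RPKM and 7.81 RPKM, 1.72-fold lower (1.30 to 2.29). Fibrillarin 2 (LOC_Os02g57590), which methylates ribosomal RNA in the nucleolus, was at 11.5 RPKM and 16.3 RPKM, a ratio of 1.41 (1.12 to 1.76). Of the 7 loci annotated as tRNA/rRNA methyltransferases, 4 had an interval above 1 and 1 below, and the median was 0.34.

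Large subunit proteins were chosen by words in the same way. Of their 23 nuclear-encoded plastid-type loci past the filter, 19 were above 0 and 4 below, 13 had an interval above 1 and 0 below, with a median of 0.24 and a summed ratio of 1.15 (1.12 to 1.18). LOC_Os05g32220 alone held 4261 of their 11152 wild-type counts, at a ratio of 1.06 (1.02 to 1.11), so the sum leans on that locus. These classes rest on the same transferred GO terms as those of the small subunit. Their 86 cytosolic loci had a median of 0.07 and a summed ratio of 1.08 (1.07 to 1.10), with 19 intervals above 1 and 0 below, beside 16.1% and 15.4% of all loci. The 7 plastid-genome types past the filter were all below 0, with a summed ratio of 0.430 (0.207 to 0.922) from few reads. Whether the plastid-type medians of the subunits, 0.56 and 0.24, differ could not be tested with 1 library per genotype.

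Marker lists of cell types were read beside these values. Light-harvesting proteins, which mark green mesophyll, summed to a ratio of 0.832 (0.826 to 0.838) with 7 of 21 loci above 0, and 4 Rubisco small subunit loci summed to 1.03 (1.02 to 1.04). For dividing cells, 43 histone loci had a median of 0.10 and summed to 1.03 (1.01 to 1.06), while 5 loci of B-type cyclins, MCM proteins and PCNA were all below 0 and summed to 0.902 (0.829 to 0.982). Oleosins and cupins, listed for seed, summed to 1.08 (1.05 to 1.11), and pollen proteins to 1.06 (0.963 to 1.17). Of the 40 oleosin and cupin loci, 23 passed the filter, at up to 330 RPKM in wild-type leaves, so this list does not mark seed alone. The part of the tissue's cell makeup in the ribosomal protein levels was not tested.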

How the data were processed

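Leaf RNA of both genotypes was sequenced as single-end reads on an Illumina HiSeq2500, per the paper's methods. In the expression table the authors deposited estimated counts for each model, not normalized and in part fractions, and RPKM values, which are the counts divided by model length and by 1 depth factor per library. TopHat, Cufflinks and Cuffdiff are named in the submitters' notes with neither version nor role. The counting tool, genome build and annotation release are not given in the sources used here. A second table, of the authors' fold changes, P-values and FDR, was not used.

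Counts and RPKM of the models of a locus were added up. Differences are of log2(RPKM + 1). Ratios have exact 95% binomial (Clopper-Pearson) intervals, computed from counts rounded to whole numbers, and cover counting error only, since reads carry no molecular identifiers. With 1 library per genotype no test was made. Divided reads were judged by non-whole counts (tolerance 0.001).

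Members, classes and lists were chosen with earlier results of these data known. Named members were those past a difference of 1, up to 5 each way and the 5 most abundant per class from 5 RPKM upwards, and up to 4 loci per pathway list. Further loci and families, all nuclear-encoded plastid-type loci among them, were named after their values had been seen, as were the GO classes. Python 3.11.15, numpy 2.4.6, pandas 2.3.3, scipy 1.17.1 and matplotlib 3.10.9 were used, and the scripts were tested on simulated data. Alternatives to the pseudocount, filter, scaling, unit of a gene, size, divided reads and membership were tried.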

Additional observations from a re-analysis of the deposited data

How the results depend on the processing

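The nuclear-encoded plastid-type class had 10 loci above 0 with an RPKM of at least 5, 12 with no filter, 9 with S16 counted among the plastid-genome types (4 of those then above 0), 15 transcript models as the unit and 11 loci otherwise. Its median ran from 0.43 to 0.57 over 9 settings and its summed ratio from 1.42 to 1.43 over 6, none of which left out LOC_Os03g63950. Cytosolic loci by GO had medians from 0.06 to 0.09. The split by words was less stable. With no filter the median was 0.017 for all members, -0.036 for organelle-type and 0.019 for cytosolic loci, so that the difference of medians, 0.20 as reported, was -0.055. With a pseudocount of 5 the organelle-type median was 0.11 and the difference of medians 0.067. With whole-number counts alone the medians were 0.12 for all members and 0.12 for cytosolic loci, the difference of medians was 0.095, the summed ratios were 1.17 and 1.11, 13 cytosolic loci by GO were above 0, and 2 families had an interval above 1. Fewer loci enter there. With GO classes the medians were 0.56 and 0.074 and their difference 0.49. At a difference of 0.5, 8 members were higher and 2 lower, of which 1 organelle-type locus was higher and 7 cytosolic loci by words were higher and 2 lower. Without non-structural loci the summed ratios were 1.11 for all members and 1.08 for cytosolic loci. With an RPKM of at least 5, 0 plastid-genome types were above 0. Over all loci, those past the size rule were 519 higher and 323 lower with a pseudocount of 0.5, 81 and 39 with 5, 187 and 82 with an RPKM of at least 5, and 1624 and 1137 at a difference of 0.5, and 171 were higher with whole-number counts. No paired analysis was possible because each genotype has 1 library. Apart from construction where named, the cause was not tested.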

Other observations

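Some small subunit proteins carry names the words of the rule do not match, and they were picked after their values had been seen. PSRP-3/Ycf65 (LOC_Os04g38750), one of the proteins named as plastid-specific, was at 39.4 RPKM in wild-type against 53.1 RPKM in *wlp2s*, a ratio of 1.35 (1.17 to 1.56). Plastid-specific ribosomal protein 4 (LOC_Os05g09400) was at 26.3 RPKM and 35.7 RPKM, a ratio of 1.36 (1.15 to 1.61). The loci named ribosomal protein 5B, LOC_Os01g01060 and LOC_Os11g29190, had ratios of 1.35 (1.11 to 1.65) and 1.14 (1.01 to 1.28), with divided reads at both. A locus named S18 ribosomal protein (LOC_Os07g07770) had 36.1 counts in wild-type and 42.4 counts in *wlp2s*. Its ratio was 1.14 (0.710 to 1.82), with an interval that includes 1.

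Among the loci left out on chromosome 10, an S16 locus (LOC_Os10g21196) had 211 counts in wild-type and 144 counts in *wlp2s*, 1.51-fold lower (1.21 to 1.87). *rps16* is a gene of the rice plastid genome, and both nuclear S16 loci described above had more counts in *wlp2s* than in wild-type.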
